A study of Homo sapiens with 16 samples.

Results

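The genes described here are 32 genes of the unfolded protein response and the integrated stress response, taken from a list of symbols. For each gene the single-gene probe set with the highest mean over 16 arrays was used. Of the 32 genes, 31 were among the 12495 genes tested. ERN1, which encodes the stress sensor IRE1, was left out because its 2 probe sets had means of 3.63 and 3.29, below the 40th percentile of every array (4.05 to 4.12). The arrays hold RNA of HEK293, an established line from human embryonic kidney. Every group had received 500 ng per well of a plasmid for the mineralocorticoid receptor (MR) 24 h earlier. The 4 groups were given vehicle, deoxycorticosterone acetate at 100 nM (DOC, which activates this receptor), the phorbol ester PMA at 10 nM (an activator of protein kinase C) or both agents, and the exposure lasted 4 h. Each group had 4 arrays, numbered as biological replicates, and the series asks how MR acts on inflammatory AP-1 signalling. Cells lacking the plasmid were not analysed here, and an effect of DOC through MR cannot be told apart from one through other steroid receptors.

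When unfolded proteins build up in the endoplasmic reticulum (ER), 3 sensors of its membrane respond. PERK (gene EIF2AK3) phosphorylates the initiation factor eIF2, which lowers protein synthesis in general and raises translation of the transcription factor ATF4. GCN2 (EIF2AK4), a cytosolic kinase that senses amino acid shortage, acts on the same factor, and this shared branch is called the integrated stress response. IRE1 splices the mRNA of XBP1 into a form that encodes an active transcription factor, while ATF6 is cut in the Golgi and releases one. Targets of ATF4 serve amino acid supply, redox balance and cell death, and targets of XBP1 and ATF6 serve folding and degradation in the ER. Translation of ATF4, splicing of XBP1 and cutting of ATF6 are not measured by these arrays, which report the signal of each mRNA only. The genes were grouped as an ATF4 arm of 11, an XBP1 and ATF6 arm of 17, and 4 sensors.

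Many ER chaperone genes carry an ER stress element in their promoter, the site through which ATF6 and XBP1 act. To show what these sites look like in genes whose response is described below, the 250 bases before the annotated start are printed for 4 of them (RefSeq, GRCh38.p14, 5′ to 3′ in the direction of transcription). Capitals mark matches on either strand to the element ERSE (CCAAT, any 9 bases, CCACG) or to ERSE-II (ATTGG, any 1 base, CCACG). They also mark matches to the C/EBP-ATF element bound by ATF4 with a C/EBP partner (TTGCATCA) or to the AP-1 element. The AP-1 element was searched as TGANTCA, with any base (N) allowed in the middle.
HSPA5 (chr9:125241344-125241593, minus strand): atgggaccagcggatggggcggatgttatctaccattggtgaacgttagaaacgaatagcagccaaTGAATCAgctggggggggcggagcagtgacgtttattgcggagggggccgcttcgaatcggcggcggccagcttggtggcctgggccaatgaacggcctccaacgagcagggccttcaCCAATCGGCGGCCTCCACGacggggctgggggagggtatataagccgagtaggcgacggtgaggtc
CRELD2 (chr22:49918384-49918633, plus strand): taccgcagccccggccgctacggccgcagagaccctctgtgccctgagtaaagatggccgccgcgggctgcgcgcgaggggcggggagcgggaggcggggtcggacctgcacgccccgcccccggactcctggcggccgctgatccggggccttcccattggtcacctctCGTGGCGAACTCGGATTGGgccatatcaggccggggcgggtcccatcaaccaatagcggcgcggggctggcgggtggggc
SDF2L1 (chr22:21642052-21642301, plus strand): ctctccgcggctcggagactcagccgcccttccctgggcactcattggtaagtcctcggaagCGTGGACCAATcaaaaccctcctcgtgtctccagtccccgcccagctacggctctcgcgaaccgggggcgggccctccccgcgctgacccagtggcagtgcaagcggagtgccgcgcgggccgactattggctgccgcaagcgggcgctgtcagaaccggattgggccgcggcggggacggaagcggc
HERPUD1 (chr16:56931892-56932141, plus strand): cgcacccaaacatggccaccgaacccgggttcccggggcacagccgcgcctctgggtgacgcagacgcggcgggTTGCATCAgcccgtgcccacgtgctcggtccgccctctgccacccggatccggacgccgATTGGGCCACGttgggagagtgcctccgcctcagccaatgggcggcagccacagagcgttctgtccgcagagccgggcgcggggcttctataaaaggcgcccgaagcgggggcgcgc
HSPA5 held an ERSE and an AP-1 match, CRELD2 an ERSE on the opposite strand, SDF2L1 an ERSE-II on the opposite strand, and HERPUD1 both an ERSE-II and a C/EBP-ATF match. These are matches of letters and no measure of binding.

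The treatments registered in genes outside the list. FOS was 5.65 ± 0.11 (log2 difference ± SE) higher with PMA than with vehicle, and FKBP5, a corticosteroid-induced co-chaperone, was 0.58 ± 0.08 higher with DOC (adjusted p = 0.00121, limma). Of 6 genes listed as typical of HEK293 (KRT8, KRT18, CDH2, VIM, PAX2 and NEFM), 5 had means above the highest array median (4.96), PAX2 being the exception. None of 6 leukocyte, 5 endothelial and 6 fibroblast markers did. The summed linear signal of the leukocyte markers was 69.3 to 78.7 with vehicle and 84.1 to 91.3 with PMA, that of the endothelial markers 74.7 to 84.5 and 87.5 to 97.1, and that of the fibroblast markers 64.5 to 73.3 and 63.7 to 73.7. That of the 6 HEK293 genes was 9139 to 10842 with vehicle and 11450 to 13538 with PMA, with 3 of the 6 called higher, NEFM by 2.51 ± 0.15. The part of these markers in the results below was not tested. NR3C2, the receptor's own gene, had means of 7.43 with vehicle, 7.38 with DOC, 7.21 with PMA and 7.02 with DOC plus PMA. It was called lower with DOC plus PMA than with DOC (limma, adjusted p under 0.05), but not for PMA against vehicle or in a DOC contrast. Arrays of a group correlated at 0.991 to 0.997. In 3 arrays, replicate 2 of PMA, replicate 1 of DOC and replicate 2 of DOC plus PMA, the deviations from the group means were correlated (0.425 to 0.554), and values without them are given where they matter. The arrays average all cells of a culture, so a change in some cells and a smaller change in all of them cannot be told apart.

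With PMA, genes of both arms and of the sensors were called, in both directions. The share called, 51.6%, was near that of all genes (47.0%). Of the 31 genes, 10 were higher and 6 lower with PMA than with vehicle (limma, adjusted p under 0.05 over all genes, n = 4 per group), which is 32.3% and 19.4%. Among all 12495 genes tested the shares were 17.7% higher and 29.3% lower, 47.0% in all. The 4 PMA arrays did not overlap the 4 vehicle arrays in 17 of the 31 genes, the 16 called and PHGDH, and in 42.2% of all genes. The changes were modest, with only PPP1R15A and DDIT4 past 2-fold. The median log2 difference was 0.09 over the 31 genes and −0.04 over all genes. The balance moved with the scaling of the arrays, since with a common median 15 genes were higher and 5 lower, and over all genes the share of calls that were higher rose from 37.6% to 55.4%. No sign changed among the 16 called genes in any of 24 other settings, and 12 of the 16 passed in all of them.

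**Figure D1:**
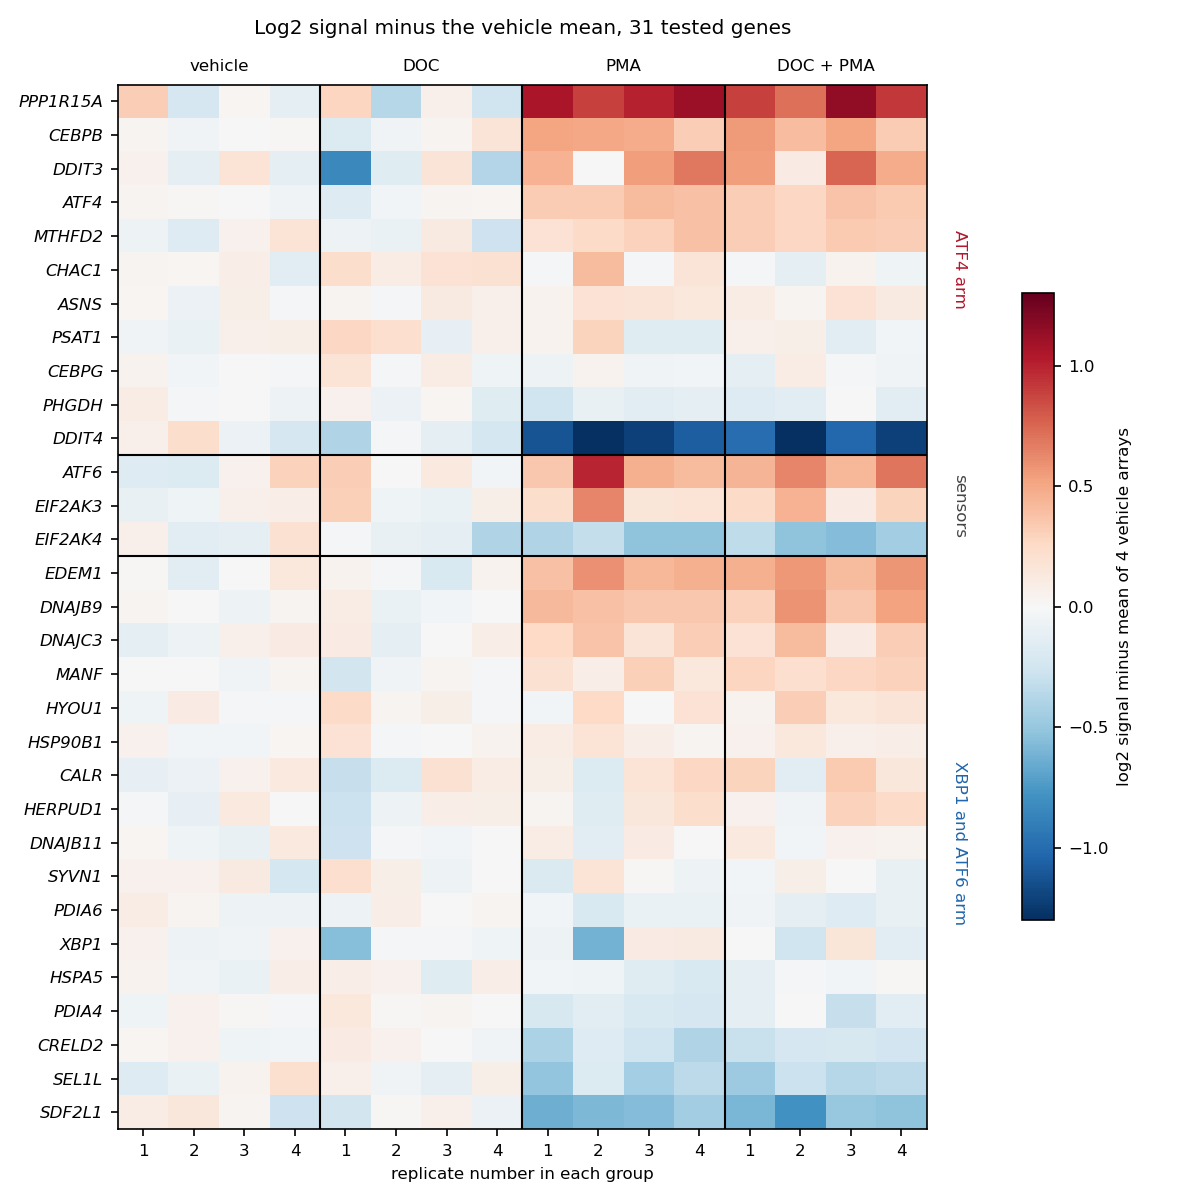
Log2 signal of each of the 31 tested genes (rows) in each of the 16 arrays (columns, by group and replicate number) minus the mean of the 4 vehicle arrays, with red for higher and blue for lower. Genes are ordered within the ATF4 arm, the sensors and the XBP1 and ATF6 arm by their difference for PMA against vehicle, and the columns with PMA stand apart from those without it in rows such as PPP1R15A (1.02) and DDIT4 (−1.20).

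ATF4 itself, the transcription factor of the integrated stress response, was raised. Its log2 signal was 12.06, 12.04, 12.02 and 11.99 with vehicle and 12.35, 12.36, 12.43 and 12.41 with PMA. With DOC it was 11.86, 11.99, 12.07 and 12.05, and with DOC plus PMA 12.35, 12.29, 12.40 and 12.37. All 8 arrays with PMA lay above all 8 without it. The rise with PMA was 0.36 ± 0.06, or 1.28-fold (adjusted p = 5.83e-05, limma). The array reads ATF4 by 1 probe set of the type that can also detect similar sequences. PPP1R15A and EIF2AK4 were likewise each read, after the filter, by 1 set of this type.

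PPP1R15A showed the largest rise. It encodes GADD34, the phosphatase subunit that removes the phosphate from eIF2 and so ends the response. The vehicle arrays read 7.37, 6.83, 7.07 and 6.92, and the PMA arrays 8.11, 7.94, 8.04 and 8.16. DOC gave 7.32, 6.68, 7.12 and 6.79, against 7.94, 7.76, 8.20 and 7.97 for DOC plus PMA. Groups with and without PMA did not overlap, and the rise with PMA was 1.02 ± 0.13, or 2.02-fold (adjusted p = 6.62e-06, limma).

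DDIT4 moved the other way. This gene, also called REDD1, encodes an inhibitor of mTORC1 and is known as a target of ATF4, of hypoxia and of glucocorticoids. It read 8.20, 8.36, 8.06 and 7.92 with vehicle and 7.01, 6.76, 6.92 and 7.07 with PMA. It was at 7.75, 8.11, 8.01 and 7.91 with DOC and at 7.15, 6.81, 7.12 and 6.92 with DOC plus PMA. Every array with PMA was below every array without it. The fall was 1.20 on the log2 scale (−1.20 ± 0.10), to 0.44 of the vehicle level, the smallest adjusted p of the list (4.70e-08, limma).

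CEBPB, a bZIP factor that pairs with ATF4 and responds to many other signals, had values of 8.10, 8.02, 8.06 and 8.08 with vehicle and 8.58, 8.57, 8.55 and 8.38 with PMA. DOC arrays held 7.88, 8.02, 8.09 and 8.23, and DOC plus PMA arrays 8.62, 8.47, 8.57 and 8.40. The groups with PMA lay above those without, by 0.46 ± 0.08 for PMA against vehicle (adjusted p = 7.52e-05, limma).

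MTHFD2, a mitochondrial enzyme of folate metabolism, rose by 0.28 ± 0.08 (adjusted p = 0.0103, limma). Its signals were 10.68, 10.57, 10.80 and 10.92 with vehicle, 10.93, 10.99, 11.04 and 11.12 with PMA, 10.67, 10.65, 10.86 and 10.48 with DOC, and 11.06, 11.01, 11.08 and 11.06 with DOC plus PMA. The lowest PMA array was only just above the highest vehicle array. All 5 of its probe sets were higher with PMA, by 0.23 to 0.36.

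DDIT3 encodes CHOP, the factor that links lasting stress to cell death, and its spread was wide. It read 6.95, 6.77, 7.07 and 6.78 with vehicle and 7.34, 6.89, 7.44 and 7.57 with PMA. With DOC it ranged from 6.06 to 7.06 (6.06, 6.73, 7.06 and 6.52) and with DOC plus PMA it was 7.44, 7.00, 7.65 and 7.38. PMA replicate 2 lay within the vehicle arrays. The difference for PMA against vehicle, 0.42 ± 0.18, did not pass (adjusted p = 0.0672, 95% interval 0.04 to 0.80, limma). Without PMA replicate 2 it did (0.56, adjusted p = 0.0167), and over all alternatives that passed the p ran from 0.00126 to 0.0449.

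The remaining genes of this arm, mostly enzymes of amino acid metabolism, did not pass. ASNS, asparagine synthetase, was at 0.14 ± 0.06 (adjusted p = 0.0713, limma), and PHGDH, the enzyme that opens serine synthesis, at −0.15 ± 0.07 (0.0685). CHAC1, which degrades glutathione, stood at 0.14 ± 0.09 (0.202). PSAT1, the next enzyme of serine synthesis, was at 0.00 ± 0.10 and CEBPG, another partner of ATF4, at −0.03 ± 0.06. Their 95% intervals reached from −0.29 for PHGDH to 0.32 for CHAC1, so larger shifts of the probe sets used are outside the intervals. With a common median ASNS (0.22, adjusted p = 0.00621) and CHAC1 (0.22, 0.0255) passed. Without PMA replicate 1 ASNS passed too (0.16, 0.0449), and without the 3 arrays that deviated together PHGDH did (−0.17, 0.0492).

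In 2 of these genes the probe sets disagreed. The other probe set of CEBPG was 0.51 higher with PMA, and the mean of both passed upward (0.24, adjusted p = 0.00153). Of 8 PSAT1 probe sets 7 were lower, down to −0.51, and their mean passed downward (−0.23, adjusted p = 0.0423). The rule of 1 probe set per gene therefore sets the call for both. In all, 19 genes had several probe sets that passed the filter, and in 16 of them every such set had the same sign for PMA against vehicle. All 8 called genes among the 19 were in that group, and the 3 exceptions were CEBPG, PSAT1 and HERPUD1.

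**Figure D2:**
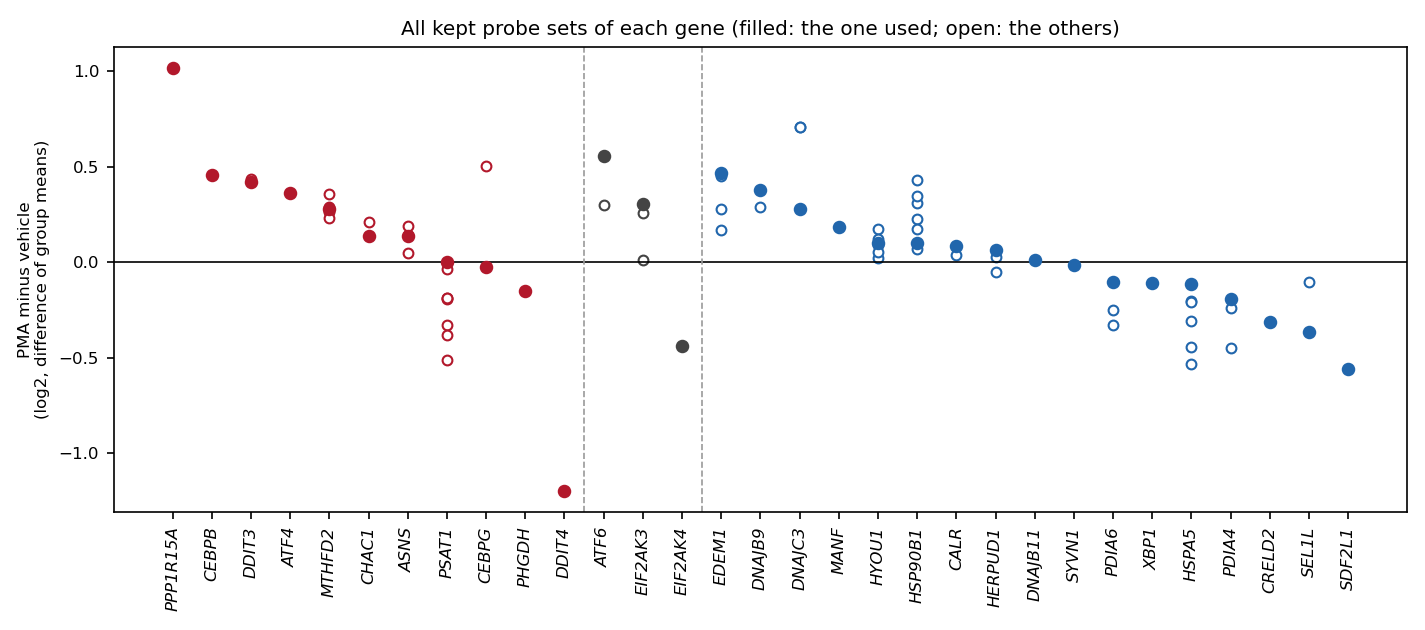
Difference of the group means (PMA minus vehicle, log2) for each of the 81 probe sets that passed the filter, by gene, with the set used filled and the others open, in red for the ATF4 arm, grey for the sensors and blue for the XBP1 and ATF6 arm. Sets of a gene mostly lie on 1 side of 0, while those of CEBPG, PSAT1 and HERPUD1 lie on both, and all 6 sets of HSPA5 are below 0.

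Messages of the sensors changed in opposite directions. ATF6 rose by 0.55 ± 0.13, or 1.47-fold (adjusted p = 0.00236, limma). It read 6.61, 6.59, 6.83 and 7.07 with vehicle, 7.12, 7.77, 7.24 and 7.19 with PMA, 7.10, 6.78, 6.90 and 6.74 with DOC, and 7.22, 7.41, 7.21 and 7.47 with DOC plus PMA. The groups with PMA were above those without, and PMA replicate 2 was the highest array. Without it the rise was 0.41 (adjusted p = 0.00682).

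EIF2AK3, the gene of PERK, was at 8.49, 8.53, 8.65 and 8.67 with vehicle and at 8.82, 9.22, 8.74 and 8.77 with PMA. With DOC it read 8.90, 8.53, 8.50 and 8.66, and with DOC plus PMA 8.84, 9.04, 8.69 and 8.87. The rise with PMA was 0.30 ± 0.11 (adjusted p = 0.0289, limma). Without PMA replicate 2 it was 0.19 and did not pass (adjusted p = 0.112), and it was also lost without vehicle replicate 1 (0.0757) or 2 (0.0691). Without the 3 arrays that deviated together, PMA replicate 2 among them, it was 0.19 and passed (0.0290). The 3 probe sets of EIF2AK3 were all higher with PMA, by 0.01 to 0.30.

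EIF2AK4, the gene of the amino acid sensor GCN2, was lower with PMA by 0.44 ± 0.09 on the log2 scale (−0.44, adjusted p = 7.70e-04, limma). Vehicle arrays held 7.37, 7.18, 7.18 and 7.51 and PMA arrays 6.92, 7.00, 6.78 and 6.79. DOC arrays read 7.30, 7.21, 7.18 and 6.92, and DOC plus PMA arrays 6.98, 6.79, 6.74 and 6.86. PMA and vehicle did not overlap, while DOC replicate 4 lay among the DOC plus PMA arrays.

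In the XBP1 and ATF6 arm 4 genes rose, 4 fell and 9 did not pass with PMA, and the median was 0.01. The share called, 47.1%, was that of all genes (47.0%), with 23.5% higher and 23.5% lower. The genes that rose were EDEM1, DNAJB9, DNAJC3 and MANF. EDEM1, a lectin-like protein that sends misfolded glycoproteins to degradation, read 8.66, 8.50, 8.63 and 8.77 with vehicle and 9.02, 9.23, 9.07 and 9.10 with PMA. It was at 8.69, 8.61, 8.44 and 8.68 with DOC and at 9.10, 9.20, 9.05 and 9.22 with DOC plus PMA. Arrays with PMA were all above those without, by 0.47 ± 0.08 for PMA against vehicle (adjusted p = 6.76e-05, limma).

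DNAJB9, the ER co-chaperone ERdj4, rose by 0.38 ± 0.07 (adjusted p = 1.83e-04, limma). Its values were 8.75, 8.70, 8.65 and 8.75 with vehicle, 9.14, 9.10, 9.06 and 9.06 with PMA, 8.81, 8.63, 8.68 and 8.71 with DOC, and 9.02, 9.29, 9.06 and 9.24 with DOC plus PMA. The highest array without PMA was below the lowest with it. DNAJC3, the co-chaperone P58IPK that restrains PERK, rose by 0.28 ± 0.08 (adjusted p = 0.00769). It read 7.30, 7.35, 7.48 and 7.52 with vehicle, 7.67, 7.79, 7.58 and 7.73 with PMA, 7.52, 7.30, 7.41 and 7.50 with DOC, and 7.60, 7.82, 7.52 and 7.73 with DOC plus PMA. Its margin between arrays was narrow, and with DOC present the groups overlapped.

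MANF, a secreted protein of the ER that protects stressed cells, rose by 0.18 ± 0.07 (adjusted p = 0.0306, limma). Arrays read 10.59, 10.58, 10.53 and 10.62 with vehicle, 10.78, 10.66, 10.89 and 10.72 with PMA, 10.35, 10.54, 10.62 and 10.56 with DOC, and 10.86, 10.80, 10.85 and 10.88 with DOC plus PMA. Every array with PMA exceeded every array without. This call was lost when any of 5 arrays was left out, namely the first 3 of vehicle and the first and the third of PMA (adjusted p = 0.0523 to 0.113), and with no filter on dim probe sets (0.0531).

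The genes that fell were SDF2L1, SEL1L, CRELD2 and PDIA4. SDF2L1, a component of ER chaperone complexes, read 9.30, 9.35, 9.24 and 8.93 with vehicle and 8.57, 8.62, 8.64 and 8.75 with PMA. With DOC it was 8.97, 9.22, 9.27 and 9.13, and with DOC plus PMA 8.61, 8.42, 8.71 and 8.68. No array with PMA reached an array without it. The difference was −0.56 ± 0.09, or 0.68 of the vehicle level (adjusted p = 8.69e-05, limma).

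SEL1L, the adaptor of the ubiquitin ligase that acts in ER-associated degradation, was lower by 0.37 on the log2 scale (−0.37 ± 0.09, adjusted p = 0.00213, limma). It read 8.50, 8.58, 8.71 and 8.87 with vehicle, 8.15, 8.49, 8.22 and 8.32 with PMA, 8.73, 8.61, 8.55 and 8.74 with DOC, and 8.19, 8.38, 8.29 and 8.33 with DOC plus PMA. PMA replicate 2 lay just below the lowest vehicle array. The mean of its probe sets did not pass (−0.24, adjusted p = 0.0813). SYVN1, the ligase that SEL1L serves, was at −0.01 ± 0.09.

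CRELD2, a secreted ER stress protein, fell by 0.31 (−0.31 ± 0.06, adjusted p = 6.50e-04, limma). The arrays read 10.06, 10.10, 9.98 and 10.00 with vehicle, 9.62, 9.87, 9.78 and 9.64 with PMA, 10.14, 10.09, 10.05 and 9.99 with DOC, and 9.75, 9.82, 9.83 and 9.79 with DOC plus PMA. Groups with and without PMA were separate. PDIA4, a disulfide isomerase, was at −0.19 ± 0.06 (adjusted p = 0.0219). It read 11.38, 11.49, 11.45 and 11.42 with vehicle, 11.23, 11.29, 11.24 and 11.22 with PMA, 11.57, 11.45, 11.48 and 11.44 with DOC, and 11.32, 11.43, 11.13 and 11.30 with DOC plus PMA. Its call was lost with a common median (−0.10, 0.136) and without vehicle replicate 2 (0.0620) or PMA replicate 4 (0.0504).

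HSPA5, the gene of the master ER chaperone BiP and the usual readout of the unfolded protein response, did not pass. It read 11.85, 11.76, 11.72 and 11.89 with vehicle, 11.77, 11.75, 11.65 and 11.60 with PMA, 11.89, 11.86, 11.65 and 11.90 with DOC, and 11.69, 11.79, 11.77 and 11.82 with DOC plus PMA. The groups overlapped, and the difference was −0.11 ± 0.07 (adjusted p = 0.196, 95% interval −0.26 to 0.03, limma). All 6 of its probe sets were lower with PMA than with vehicle, by up to 0.53 on the log2 scale (−0.53), and their mean passed (−0.30, adjusted p = 0.0219). With DOC present 2 of the 6 were higher and 4 lower.

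XBP1 did not pass either, and its arrays show the deviating arrays plainly. Its signals were 9.07, 8.94, 8.97 and 9.06 with vehicle, 8.95, 8.40, 9.12 and 9.13 with PMA, 8.46, 8.99, 9.00 and 8.95 with DOC, and 9.01, 8.75, 9.17 and 8.87 with DOC plus PMA. The 3 lowest values are those of the 3 arrays that deviated together. The difference for PMA was −0.11 ± 0.15 (adjusted p = 0.562, limma), and 0.06 without these 3 arrays (adjusted p = 0.562). The other genes of this arm that did not pass lay between −0.10 for PDIA6, an isomerase, and 0.10 for the chaperone HYOU1. They were the chaperone HSP90B1 (GRP94) at 0.10, the lectin chaperone CALR at 0.09, the degradation factor HERPUD1 at 0.06, the co-chaperone DNAJB11 at 0.01, and SYVN1. HSP90B1 (0.19, adjusted p = 0.00782) and HYOU1 (0.19, 0.0312) passed with a common median.

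**Figure D3:**
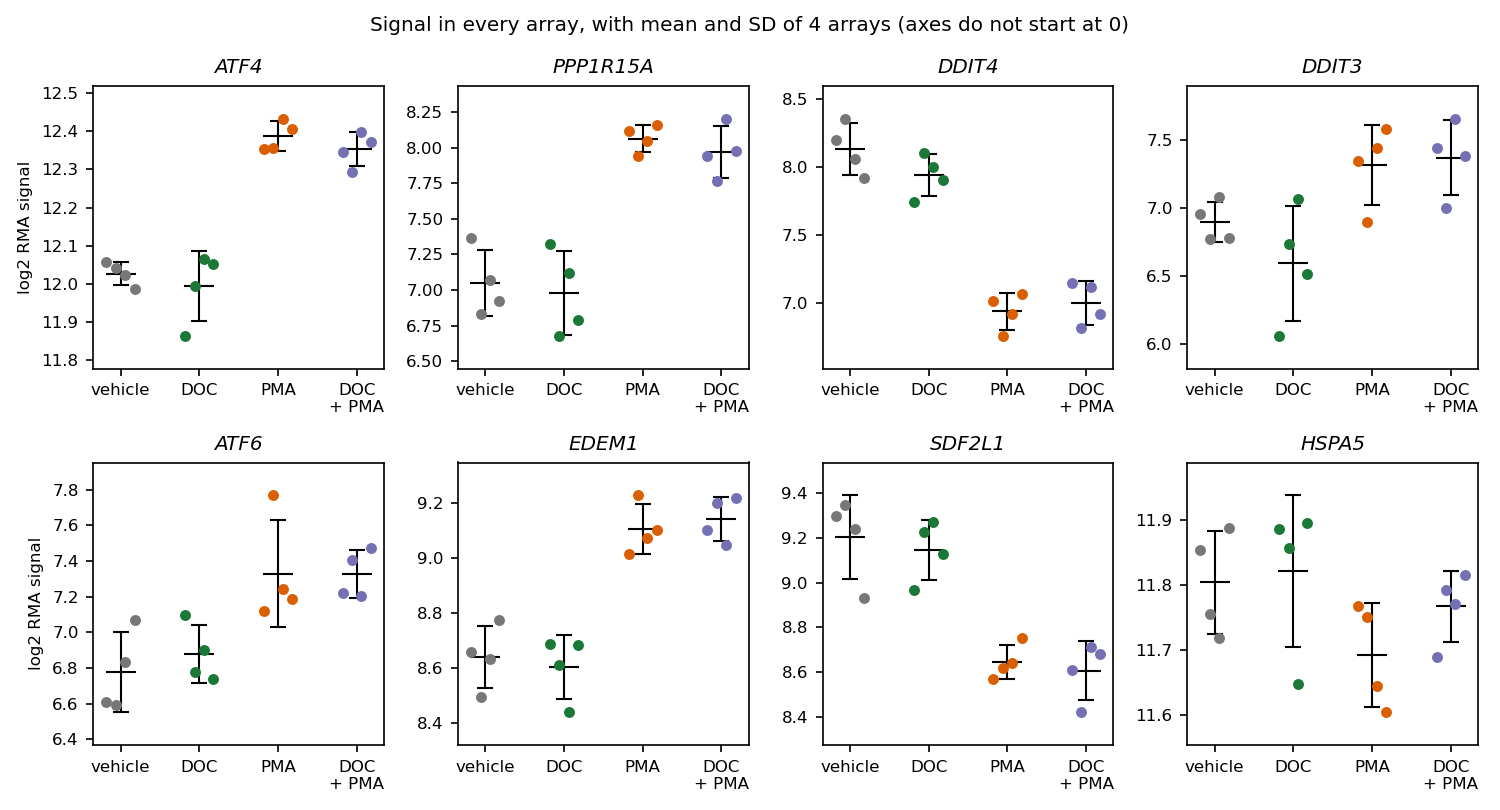
Log2 RMA signal of 8 genes in every array (points), with the mean and SD of the 4 arrays of each group (bars), on axes that do not start at 0. For ATF4, PPP1R15A, ATF6 and EDEM1 the points with PMA lie above those without, for DDIT4 and SDF2L1 below, and for DDIT3 and HSPA5 the groups overlap.

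The printed promoters can be set beside these values. An ERSE or ERSE-II match was found in the 300-base window (250 bases before to 50 after the start) of 8 of the 17 genes of this arm, and in 25 of 10257 promoters of tested genes (0.244%). The 8 were XBP1, HSPA5, HSP90B1, CALR, SDF2L1, HERPUD1, CRELD2 and HYOU1. With PMA 2 of them fell, SDF2L1 and CRELD2, 6 did not pass and 0 rose. Of the 9 without a match 4 rose, 2 fell and 3 did not pass. This difference in counts was not tested. The UPRE core (TGACGTGG) matched in HYOU1 alone among the 31 genes (0.897% of promoters), the C/EBP-ATF element in CHAC1 and HERPUD1 (0.536%), and the AP-1 element in DDIT3, EIF2AK4 and HSPA5 (4.5%). A window without a match says only that these letters are not in it.

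The arms were then compared by their medians, as a description without a test. In the ATF4 arm 4 of 11 genes rose and 1 fell with PMA, with a median log2 difference of 0.14. The 45.5% called was near the 47.0% of all genes, with 36.4% higher and 9.09% lower against 17.7% and 29.3%. The median of the absolute differences was 0.28 in this arm, 0.11 in the XBP1 and ATF6 arm and 0.20 over all genes. For DOC plus PMA against DOC the median log2 difference was 0.06 in the ATF4 arm and 0.08 in the XBP1 and ATF6 arm. The order of the arms by this measure was thus narrowly reversed with DOC present. By the per-array medians that follow it was not, as the ATF4 arm stayed above in every DOC plus PMA array (difference 0.05 to 0.12). Per array, the median over an arm of the signal minus the vehicle mean was 0.05, 0.25, 0.17 and 0.16 with PMA for the ATF4 arm. For the XBP1 and ATF6 arm it was −0.04, −0.14, 0.09 and 0.03. The difference between the arms was 0.17 ± 0.15 (SD, n = 4) with PMA, −0.01 ± 0.05 with vehicle, −0.01 ± 0.06 with DOC and 0.09 ± 0.03 with DOC plus PMA. The lowest PMA array (0.08) was above the highest vehicle array (0.05), but PMA replicate 2, at 0.39, stood apart. PMA minus vehicle was 0.18 for this difference, and 0.10 without PMA replicate 2. Leaving DDIT4, PPP1R15A and CEBPB out of the ATF4 arm gave 0.14, and moving HERPUD1 into it gave 0.18.

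**Figure D4:**
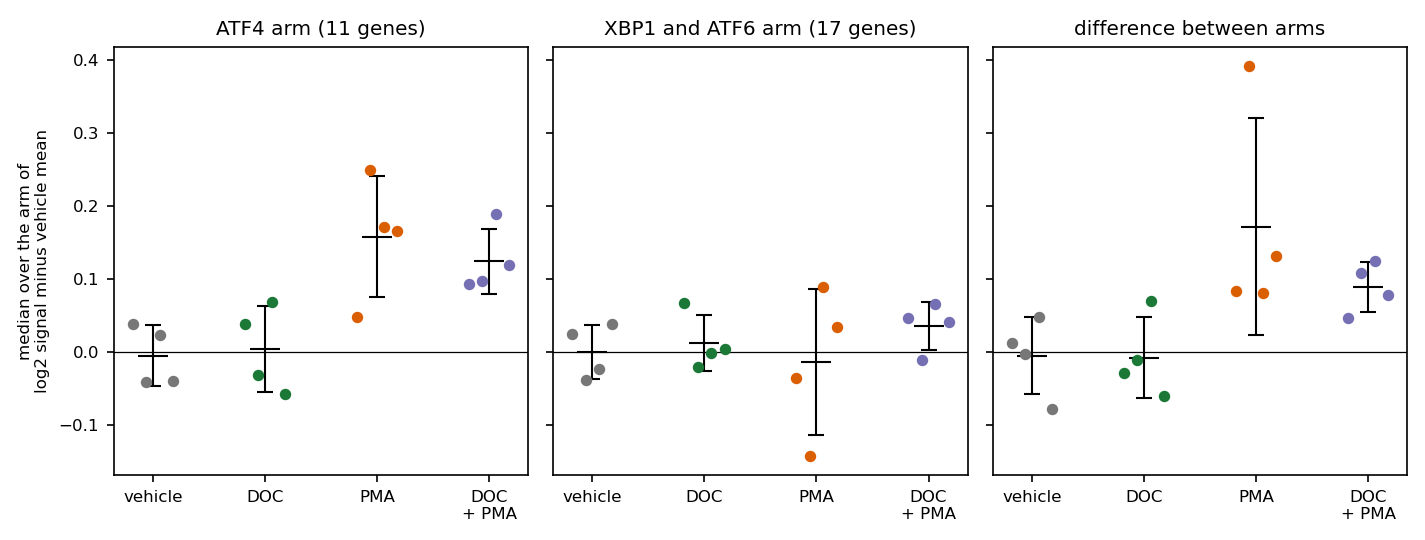
Median over the genes of an arm of the log2 signal minus the vehicle mean, for each array (points) with the group mean and SD of 4 arrays (bars), for the ATF4 arm, the XBP1 and ATF6 arm and their difference. The ATF4 arm has means of 0.16 with PMA and 0.12 with DOC plus PMA, the XBP1 and ATF6 arm −0.01 and 0.04, and PMA replicate 2 gives the widest gap (0.39).

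DOC plus PMA against DOC measured the response to PMA in other arrays, since it shares none with PMA against vehicle. It is not a fully independent repeat. Both contrasts take their spread from 1 fit over all 16 arrays, and same-numbered PMA and DOC plus PMA arrays deviated together (0.157 to 0.549). Here too 10 genes were higher and 6 lower (limma, adjusted p under 0.05), against 15.7% and 26.9% of all genes, 42.6% in all. Arrays did not overlap in 14 of the 31 genes and in 38.9% of all genes. Of the 16 genes called without DOC, 15 were called the same way with it, and over all genes this held for 79.2% of 5869. The exception was EIF2AK3 (0.21 ± 0.11, adjusted p = 0.125, limma). It did pass with DOC present under a common median (0.29, 0.0138), averaged probe sets (0.21, 0.00557), array weights (0.28, 0.00610), without DOC replicate 1 (0.30, 0.0337) and without the 3 arrays that deviated together (0.24, 0.0155). DDIT3 was called with DOC (0.77 ± 0.18, adjusted p = 0.00207) and not without it. Neither difference between the responses passed, as the interaction of DDIT3 was 0.36 ± 0.26 (adjusted p = 1.00). DOC replicate 1, the lowest DDIT3 array at 6.06, is one of the deviating arrays, and without all 3 of them the rise with DOC present was 0.72 (adjusted p = 3.60e-04).

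The responses with DOC present are given here for the other called genes. PPP1R15A rose by 0.99 ± 0.13 with DOC present, ATF4 by 0.36 ± 0.06 and CEBPB by 0.46 ± 0.08. DDIT4 was at −0.94 ± 0.10, SDF2L1 at −0.54 ± 0.09 and SEL1L at −0.36 ± 0.09. EDEM1 was at 0.54 ± 0.08, DNAJB9 at 0.45 ± 0.07 and ATF6 at 0.45 ± 0.13. MTHFD2 was at 0.39 ± 0.08 and CRELD2 at −0.27 ± 0.06. MANF was at 0.33 ± 0.07, against 0.18 ± 0.07 without DOC. The calls for DNAJC3 (0.24) and PDIA4 (−0.19) were lost without single arrays, namely DOC replicate 2 or 3 or DOC plus PMA replicate 2 or 4 for DNAJC3 (adjusted p = 0.0504 to 0.0838), and DOC replicate 1 or DOC plus PMA replicate 3 for PDIA4 (0.0728 and 0.101). PDIA4 was also lost with a common median (−0.11, adjusted p = 0.121), and SEL1L with averaged probe sets (−0.23, 0.101). EIF2AK4 (−0.31) was lost without the 3 deviating arrays (−0.24, adjusted p = 0.0689).

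**Figure D5:**
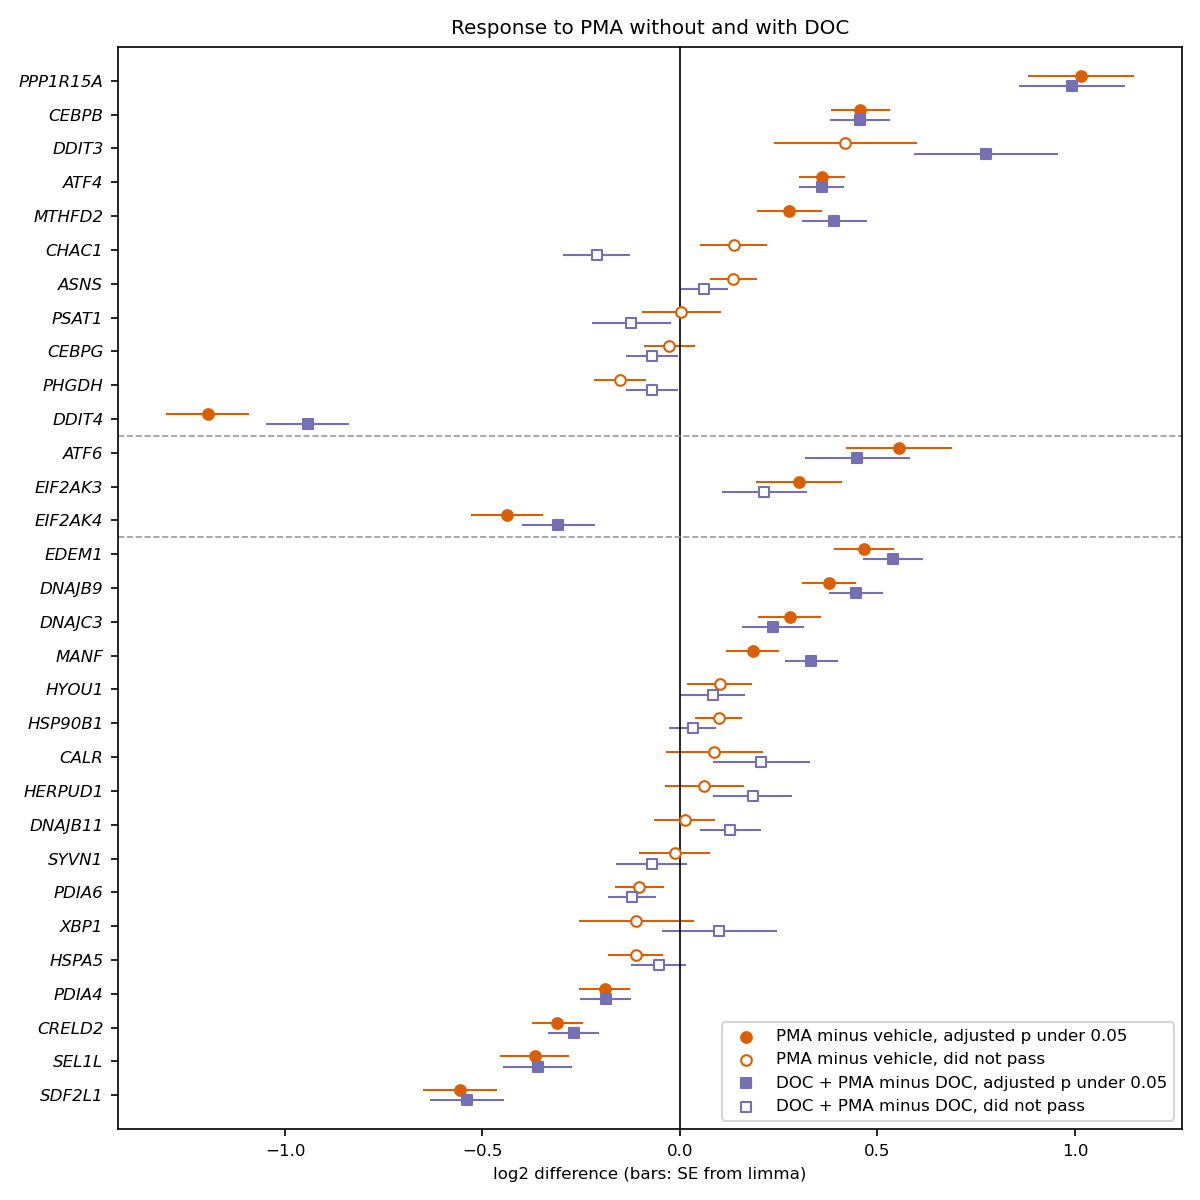
Log2 difference with its SE for PMA minus vehicle (circles) and DOC plus PMA minus DOC (squares) for each of the 31 genes, filled where the adjusted p was under 0.05, with dashed lines between the ATF4 arm, the sensors and the XBP1 and ATF6 arm. Both symbols are filled in 15 genes, while EIF2AK3 is filled only without DOC and DDIT3 only with it.

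No response of these genes to DOC was detected. Each DOC contrast shares arrays with a PMA contrast above. For DOC against vehicle 0 of 31 passed in limma and 0 had an unadjusted p under 0.05, where 0.120% of all genes passed. In the presence of PMA, DOC also gave 0 of 31 calls, again with 0 genes at an unadjusted p under 0.05 (0.384% of all genes passed, 0.360% higher and 0.0240% lower). The DOC main effect, the mean over both levels of PMA, likewise called 0 of 31 and 0 unadjusted (0.432% of all genes, 0.408% higher and 0.0240% lower). The largest differences for DOC against vehicle were those of DDIT3 at −0.30 ± 0.18, DDIT4 at −0.19 ± 0.10 and CHAC1 at 0.18 ± 0.09. CHAC1 was the only gene of the list whose DOC arrays (6.21 to 6.35) did not overlap the vehicle arrays (5.97 to 6.20). The share of all genes without overlap was not counted for this contrast, so this separation cannot be set against it. Over the list, the 95% intervals of the DOC main effect lay within −0.39 and 0.25, so shifts of this mean beyond these limits are outside all 31 intervals. Opposite differences at the 2 levels of PMA cancel in this mean, as for CHAC1 (0.18 without PMA and −0.17 with it). The single contrasts had wider intervals. Those of DDIT3 were −0.68 to 0.08 for DOC against vehicle and −0.33 to 0.44 for DOC plus PMA against PMA. DDIT4 is widely used as a glucocorticoid-induced gene, and its interval for DOC against vehicle was −0.41 to 0.03.

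The interaction of DOC and PMA called 0 of 31 genes (0.0880% of all genes, 0.0720% higher and 0.0160% lower), with 1 gene at an unadjusted p under 0.05. This was CHAC1 at −0.35 ± 0.12 (adjusted p = 1.00, limma). Over all 12495 genes 370 were under 0.05 unadjusted for the interaction. The CHAC1 signal was 0.14 higher with PMA than with vehicle and 0.21 lower (−0.21, adjusted p = 0.0539) with DOC plus PMA than with DOC. Without PMA replicate 2 the first value was 0.05. The second passed with the 60th percentile filter (adjusted p = 0.0429, limma), with array weights (0.0235), without vehicle replicate 4 (0.0473) and without each of PMA replicates 1, 2 and 3 (0.0160 to 0.0489). The other CHAC1 probe set was at 0.21 without DOC and 0.02 with it.

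Other genes of these pathways were counted from 3 further lists. Of 23 tested further ATF4 targets 10 rose and 5 fell with PMA (65.2%, against 47.0% of all genes, limma), with a median of 0.16. The rises were led by the stress factor ATF3 at 1.05 ± 0.10, the arginine and lysine carrier SLC7A1 at 1.00 ± 0.08, the leucine carrier SLC7A5 at 0.81 ± 0.08 and the cystine carrier SLC7A11 at 0.55 ± 0.14. Falls were led by the lipoprotein receptor VLDLR at −1.49 ± 0.11 and the alanyl-tRNA synthetase AARS1 at −0.93 ± 0.08, followed by NUPR1 at −0.35 and EIF4EBP1 at −0.26. The count of falls was 2 with a common median and 3 when the first or the third vehicle array, or the first or the second PMA array, was left out. TRIB3, a pseudokinase induced by ATF4 and CHOP, was at 0.19 ± 0.10 and did not pass (adjusted p = 0.127). For DOC plus PMA against DOC 8 of the 23 targets rose and 3 fell (47.8%), with a median of 0.12. Over all genes 42.6% passed in that contrast, 15.7% higher and 26.9% lower.

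Of 35 tested further genes of ER translocation, folding and degradation 5 rose and 8 fell (37.1%), with a median of −0.01. Over all genes 47.0% passed, 17.7% higher and 29.3% lower. The oxidase ERO1A was at 0.52 ± 0.07, SELENOS, a selenoprotein of ER-associated degradation, at 0.41 ± 0.07, the translocation protein SEC62 at 0.31 and ERP44 at 0.26. Against EDEM1, its relatives fell, EDEM3 by 0.56 (−0.56 ± 0.09) and EDEM2 by 0.53 (−0.53 ± 0.08). WFS1 was at −0.60 ± 0.11 and the retrieval receptor KDELR3 at −0.43 ± 0.10. This split depended on scaling, with 11 rises with a common median and 8 after cyclic loess or with array weights. Over all genes the share of calls that were higher also moved, from 37.6% as deposited to 46.5% after cyclic loess and 55.4% with a common median. For DOC plus PMA against DOC 4 of the 35 genes rose and 6 fell (28.6%, against 42.6% of all genes).

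Among 14 genes that control eIF2 or process the sensors 2 rose and 5 fell with PMA (50.0%, near the 47.0% of all genes). The rises were those of PPP1R15B at 0.60 ± 0.07, the constitutive counterpart of PPP1R15A, and of EIF2S1, the alpha subunit of eIF2 itself, at 0.45 ± 0.07. Both phosphatase subunits of eIF2 were thus higher. The kinase EIF2AK1 was at −0.40 ± 0.08, the exchange factor subunit EIF2B1 at −0.30 ± 0.06, and the proteases MBTPS1 and MBTPS2, which cut ATF6, at −0.29 ± 0.07 and −0.38 ± 0.08 (adjusted p = 0.00409 and 4.94e-04, limma). With a common median the counts were 4 and 3. For DOC plus PMA against DOC 3 rose and 3 fell (42.9%, against 42.6% of all genes). No gene of these 3 lists passed for DOC against vehicle.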

How the data were processed

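Biotin-labelled cRNA from 100 ng of total RNA was hybridised to Affymetrix 3' arrays, per the labels' protocols. The authors deposited log2 signals. The submitters' processing notes name RMA and the Affymetrix Expression Console software, and no source used here gives their versions or settings. RMA forces the arrays to a common distribution, so a shift of all transcripts cannot be seen. Of 49293 probe sets, 44988 had 1 gene in the platform annotation, 1832 several and 2473 none. Probe sets had to reach the 40th percentile in 4 or more arrays, and the remaining set with the highest mean stood for its gene (12495 genes). The table had 0 columns outside the 16 arrays, and 0 pairs of arrays were identical.

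Group means over all 16 arrays were fitted with limma 3.58.1 (R 4.3.3; lmFit, eBayes), with Benjamini-Hochberg adjustment over all genes, two-sided, at 0.05, and tested on simulated data. The number of arrays limits the precision, with a median SE of 0.0879 for a difference of 2 groups. Same-numbered arrays of PMA and DOC plus PMA deviated together in 4 of 4 pairs (0.157 to 0.549), and at most 3 pairs did for other groups, while the labels do not say what a number shares. Promoters came from RefSeq for all 32 genes. Values in every array are given for ATF4, DDIT3, XBP1, HSPA5 and the genes called with PMA (up to 8 per arm and direction) or in a DOC contrast. Of the further pathway genes, up to 4 called per list and direction are named with their log2 difference. Members and lists were chosen with earlier results of these data known. Alternatives were cyclic loess, a common median, averaged probe sets, no filter or a 60th percentile filter, array weights, a replicate block and leaving out each array.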

Additional observations from a re-analysis of the deposited data

Results flagged for a closer look

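In 4 of 76 sets of 4 arrays checked, covering the 19 genes given array by array, a single array stood far from the other 3 of its group. Chance alone marks about 1 in 20 such sets. XBP1 was at 8.46 in DOC replicate 1, below 8.95 to 9.00 in the others. HSPA5 read 11.65 in DOC replicate 3 against 11.86 to 11.90. CEBPB was at 8.38 in PMA replicate 4, below 8.55 to 8.58. EIF2AK3 was at 9.22 in PMA replicate 2, above 8.74 to 8.82, and its call for PMA against vehicle was lost without that array (0.19, adjusted p = 0.112, limma).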

How the results depend on the processing

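Counts of genes higher and lower stayed within 1.5 times of the reported ones in all settings run. They were 8 to 15 higher and 5 to 7 lower for PMA against vehicle, and 9 to 12 and 5 to 8 for DOC plus PMA against DOC. No gene of the list passed in any DOC contrast or for the interaction under any setting, including the replicate block over all 16 arrays and the block over the 8 arrays with PMA, which was chosen after seeing the data. With the replicate block 11 genes were higher and 6 lower for PMA against vehicle, where DDIT3 was added (adjusted p = 0.0336, limma), and 11 and 6 with DOC present, where HERPUD1 was added (0.18, 0.0441). Without the 3 arrays that deviated together, also chosen afterwards, the counts were 11 and 7, and 11 and 5. Leaving out single arrays gave 0.10 to 0.21 for the difference between the arms, and averaged probe sets gave 0.24.

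Signs turned only in genes that had not passed. For PMA against vehicle, SYVN1 turned with cyclic loess (0.0582) and a common median (0.0741), and ranged from −0.0901 to 0.0468 when single arrays were left out. CEBPG turned with a common median (0.0600) and averaged probe sets (0.2391), and DNAJB11 ranged from −0.0203 to 0.0663 without single arrays. PSAT1 turned with averaged probe sets (−0.2277), array weights (−0.0908) and without the 3 deviating arrays (−0.0911), and ranged from −0.0911 to 0.0589 without single arrays. XBP1 turned with array weights (0.0436) and without the 3 deviating arrays (0.0557), and ranged from −0.1878 to 0.0557 without single arrays. With DOC present, HSP90B1 turned with cyclic loess (−0.0043). A common median turned CEBPG (0.0064), PHGDH (0.0072), HSPA5 (0.0232) and SYVN1 (0.0057), and averaged probe sets turned CEBPG (0.2673). XBP1 turned with array weights (−0.0142) and ranged from −0.0302 to 0.1660 without single arrays. The cause was not tested.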
